A study of Mus musculus with 24 samples.

Results

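ATF4 is the transcription factor through which cells answer a shortage of amino acids and other stresses, and its best-known targets make, import and load amino acids. Phosphorylation of the initiation factor eIF2α slows protein synthesis in general but favours translation of the Atf4 mRNA, so ATF4 activity can change with little change in its own transcript. The protein pairs with other basic leucine zipper proteins, such as the C/EBP factors, on composite DNA elements, and it switches on genes for serine, glycine and asparagine synthesis, for cystine and large neutral amino acid uptake, and for most of the cytosolic aminoacyl-tRNA synthetases, the enzymes that join each amino acid to its tRNA. The set described here was a fixed list of 34 such genes, given by name and chosen with earlier results of these data known. It held 5 regulators (Atf4, Ddit3, Trib3, Chac1 and Sesn2), 6 enzymes (Asns, Phgdh, Psat1, Psph, Shmt2 and Mthfd2), 3 transporter genes (Slc7a11, Slc7a5 and Slc3a2) and 20 cytosolic tRNA synthetase genes. Of the 34, 33 genes were measured by 69 probe sets among 18193 genes in all.

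Bone marrow-derived macrophages of 6 C57Bl/6 mice were profiled on 24 arrays, 1 per culture. Marrow cells were cultured for 10 days with M-CSF at 20 ng/ml, the growth factor that drives macrophage differentiation, and every group of this report had M-CSF. Cultures received no IL-4 or IL-4 at 20 ng/ml, the cytokine of alternative activation, each with the DMSO and ethanol vehicle or with rosiglitazone (RSG) at 1 µM, a synthetic ligand of the nuclear receptor PPARγ. Mice 1 to 3 were Pparg+/- LysCre, with 1 null Pparg allele, and mice 4 to 6 were Pparg fl/- LysCre, with the null allele and a loxP-flanked one, so that all 6 mice carried a null allele and the Cre transgene. Cre is driven by the lysozyme gene, which is active in macrophages and in neutrophils. Each mouse gave a culture in all 4 treatments, which made 8 groups of 3 arrays.

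The values were ratios. Each signal had been divided by the middle signal of its array and then by the probe set's own median over the arrays, so that 1 means a usual level for that probe set. A ratio compares arrays for 1 gene and says nothing about which gene was more abundant. For each gene the log2 ratios of its probe sets were averaged, and groups were compared with limma, adjusted by the Benjamini-Hochberg method over all 18193 genes; a gene is said to have risen or fallen where its adjusted p was below 0.05 and its change at least 1.5-fold, and changes below are log2 differences ± SE. The single probe set of Pparg had mean ratios of 0.549 and 1.73 in Pparg+/- vehicle cultures without and with IL-4 and of 0.79 and 2.64 in Pparg fl/- vehicle cultures; where it lies relative to the deleted part is not given in the sources used here, so it does not check the deletion.

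Several promoters of the set hold the letters of the composite element that ATF4 and C/EBP proteins share. In the RefSeq windows of 300 bases (250 before to 50 after the annotated start, GRCm38.p6), the word TGATGNAA was found on either strand in 3.97% of 32851 windows of all genes, and in 4.51% of genes. Among the 26 listed genes with a window it was found in 9: Chac1, Trib3, Slc7a11, Asns, Aars, Gars, Iars, Tars and Yars. The stretches around it are shown because all 9 genes rose with IL-4 in at least 1 setting. Most measured genes with a window did so with or without the word: 21 rose in at least 1 setting and 4 did not. The stretches run 5′ to 3′ on the gene's strand, with the word or its reverse complement in capitals.

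Chac1: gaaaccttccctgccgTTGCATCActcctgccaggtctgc
Slc7a11: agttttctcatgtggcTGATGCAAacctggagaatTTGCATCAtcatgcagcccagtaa
Asns: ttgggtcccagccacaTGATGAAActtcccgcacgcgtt
Aars: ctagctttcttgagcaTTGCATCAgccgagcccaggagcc
Gars: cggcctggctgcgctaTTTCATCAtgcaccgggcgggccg
Trib3: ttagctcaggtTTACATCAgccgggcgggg
Tars: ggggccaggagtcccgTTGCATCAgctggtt
Yars: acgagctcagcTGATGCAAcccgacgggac
Iars: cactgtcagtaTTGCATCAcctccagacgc

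The Chac1 stretch lies at chr2:119351033-119351072 on the plus strand, 193 bases before the start. That of Slc7a11 spans chr3:50443637-50443695 on the minus strand and holds the word on both strands, 66 and 47 bases upstream. The Asns stretch is chr6:7693210-7693248 on the minus strand, and the 2 synthetase genes with an upstream match on the plus strand are Aars at chr8:111033714-111033753 and Gars at chr6:55037955-55037994. The Tars match, chr15:11399659-11399689 on the minus strand, sits 15 bases before the start. In Trib3 (chr2:152344028-152344057, minus strand), Yars (chr4:129189895-129189924, plus strand) and Iars (chr13:49682126-49682155, plus strand) the word begins 14, 3 and 7 bases after the start. Aars holds a second match just after its start that is not shown. With the stricter word TGATGCAA, 6 of the 26 genes had a match, beside 1.03% of all genes and 0.89% of all windows. A palindrome of the kind that STAT6 binds downstream of the IL-4 receptor, TTC and GAA with 4 bases between them, was found in 2 of the 26 genes, Chac1 and Shmt2 (7.7%), and in 8.01% of all genes and 6.95% of all windows. These are matches of letters in short windows, not measured binding. Cars, Hars, Lars, Nars, Rars, Slc7a5, Vars and Wars had no window.

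IL-4 raised most of the set in every setting. In Pparg+/- vehicle cultures 26 of 33 genes rose and 0 fell, where 8.01% of all genes rose and 6.57% fell. In Pparg fl/- vehicle cultures 23 rose and 0 fell, against 8.59% and 7.69% of all genes. With RSG present throughout, the counts were 23 up and 0 down in Pparg+/- cells (all genes, 6.78% and 6.15%) and likewise 23 up and 0 down in the Pparg fl/- ones (7.67% and 6.94%). The median change of the 33 genes was 0.98, 0.86, 0.74 and 0.86 in these 4 settings, beside medians over all genes of 0.09, 0.13, 0.11 and 0.11. The 4 settings used different arrays but the same 6 mice. Without mouse 3 the count in Pparg+/- cells with RSG was 14.

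**Figure D1:**
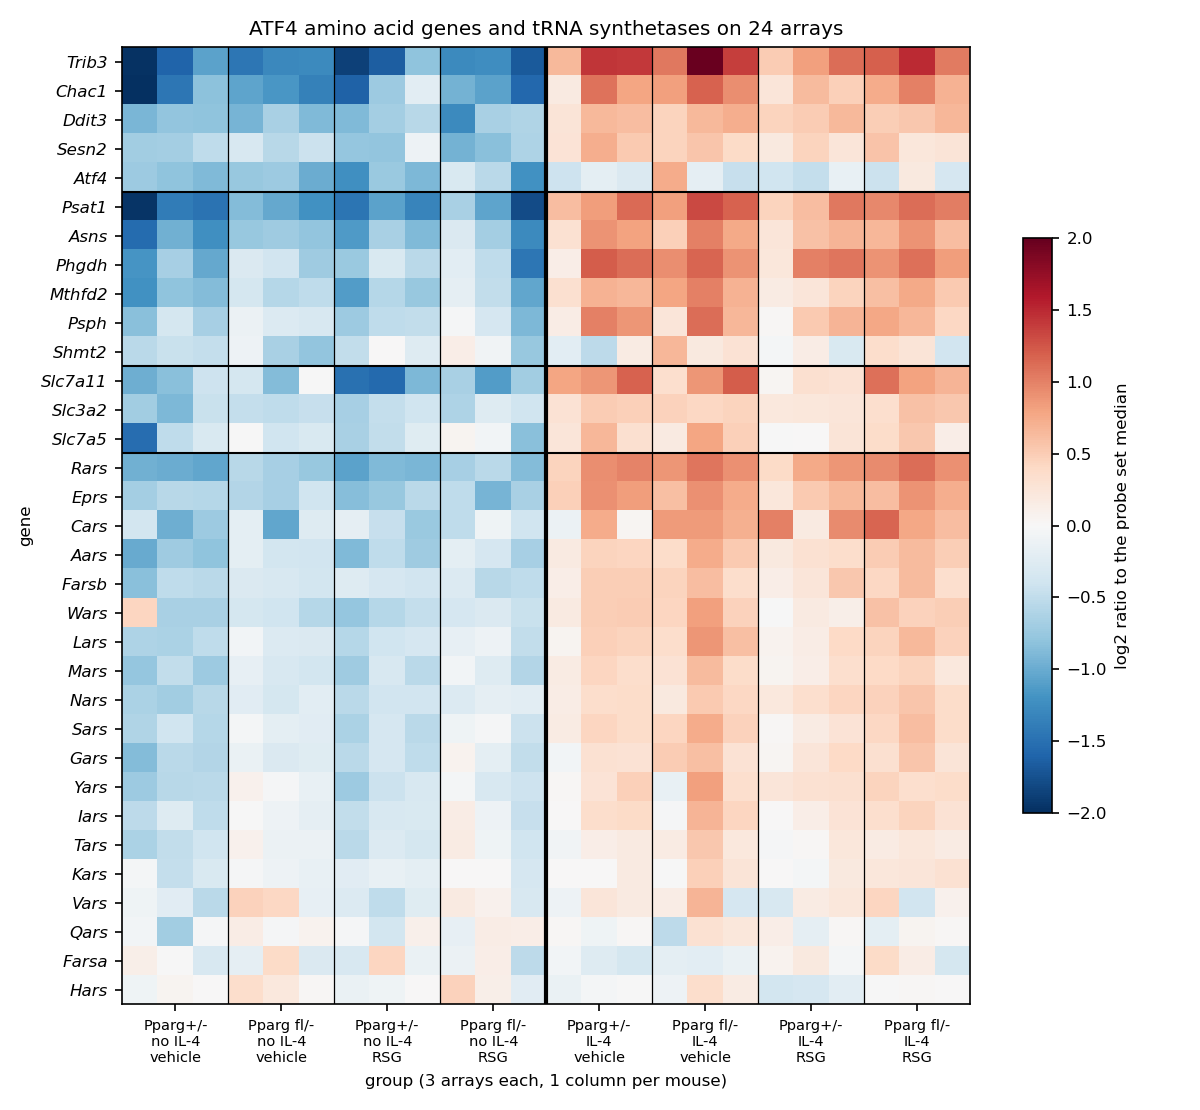
Log2 ratio of each of the 33 genes (rows, by role and then by their mean change with IL-4) on each of the 24 arrays (columns, 3 per group, IL-4 groups on the right of the thick line). Most rows turn from blue to red at the thick line, while Vars, Qars, Farsa and Hars at the foot do not; the colour scale ends at 2 in either direction.

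There were 22 genes that rose in all 4 settings, which 4.26% of all genes did. They comprised 4 of the 5 regulators (Ddit3, Trib3, Chac1 and Sesn2), 5 of the 6 enzymes (Asns, Phgdh, Psat1, Psph and Mthfd2), the transporter genes Slc7a11 and Slc3a2, and the synthetase genes Aars, Cars, Eprs, Gars, Lars, Mars, Nars, Rars, Sars, Wars and Farsb. Yars rose in 3 settings. Shmt2, Slc7a5, Iars and Tars rose in 1 setting each, and Atf4, Hars, Kars, Qars, Vars and Farsa in 0. For 23 genes every IL-4 array lay above every array without IL-4 in all 4 settings (8.83% of all genes); in the vehicle cultures alone this held for 27 genes in Pparg+/- cells (22.1% of all genes) and 27 in Pparg fl/- cells (19.0%). In the mean of the 4 settings 25 genes rose and 0 fell (10.4% and 9.24% of all genes).

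**Figure D2:**
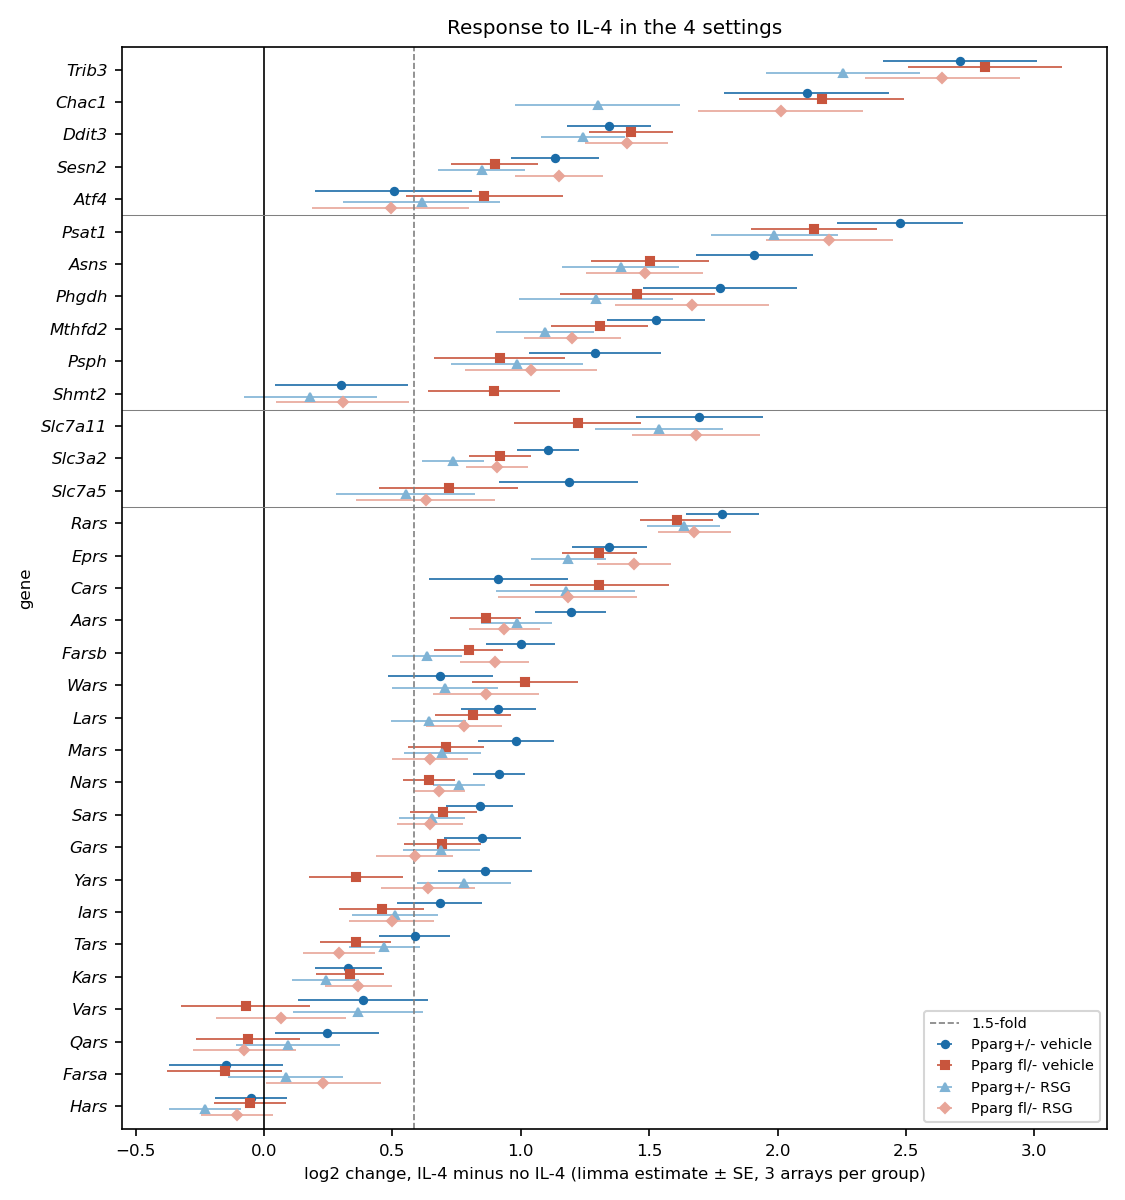
Log2 change with IL-4 (horizontal axis, limma estimate ± SE, 3 arrays per group) for each gene in the 4 settings, with genes grouped by role. Trib3 has the largest change in each setting, 2.25 to 2.81, and the estimates of the 4 settings lie close together for most genes.

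Among the regulators, Trib3, a pseudokinase that ATF4 induces and that restrains ATF4, changed most. Its ratio in Pparg+/- vehicle cultures was 0.253, 0.33 and 0.478 without IL-4 and 1.57, 2.69 and 2.65 with it, in mice 1, 2 and 3. In Pparg fl/- vehicle cultures the ratios were 0.366, 0.409 and 0.414 without and 2.08, 3.92 and 2.61 with IL-4, in mice 4, 5 and 6. The groups did not overlap, and the changes were 2.71 ± 0.30 and 2.81 ± 0.30 (limma adjusted p = 2.3e-06 and 1.4e-06). With RSG they were 2.25 ± 0.30 in Pparg+/- and 2.64 ± 0.30 in Pparg fl/- cells.

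Chac1 encodes an enzyme that degrades glutathione. Without IL-4 its ratios were 0.249, 0.366 and 0.565 in Pparg+/- and 0.479, 0.444 and 0.393 in Pparg fl/- vehicle cultures. IL-4 cultures of the same mice had 1.14, 2.13 and 1.73, and 1.77, 2.27 and 1.9. The lowest IL-4 array was thus above the highest array without it, and Chac1 rose by 2.11 ± 0.32 and 2.17 ± 0.32 (limma adjusted p = 8.3e-05 and 5.5e-05).

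Ddit3 encodes CHOP, a C/EBP-family partner and target of ATF4. It stood at 0.532, 0.577 and 0.575 without and at 1.2, 1.57 and 1.54 with IL-4 in Pparg+/- vehicle cultures, and at 0.522, 0.636 and 0.54 and then 1.35, 1.56 and 1.65 in Pparg fl/- ones. Its change varied little between settings, from 1.24 to 1.43. Its 2 probe sets both rose in the mean of the 4 settings, by 1.94 and 0.77. On the genome (GRCm38.p6) Ddit3 (chr10:127290793-127296291) and Mars (chr10:127296221-127311786) overlap by 71 bases.

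Sesn2, which encodes the leucine-binding inhibitor of mTORC1 signalling Sestrin 2, had ratios of 0.617, 0.626 and 0.702 without IL-4 and 1.21, 1.65 and 1.44 with it in Pparg+/- vehicle cultures. The Pparg fl/- vehicle arrays had 0.799, 0.683 and 0.741 and then 1.37, 1.47 and 1.3. Every IL-4 array was above every other in these groups, with changes of 1.13 ± 0.17 and 0.90 ± 0.17.

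Atf4 itself (chr15:80255184-80257545) was less changed than most of the set, and its 3 probe sets did not behave alike. One of them has a median ratio of 0.311 over the arrays in place of 1, so that the averaged Atf4 ratio lies below the usual 1 and compares arrays only. Averaged over the 3, it was 0.607, 0.57 and 0.543 without and 0.749, 0.872 and 0.819 with IL-4 in Pparg+/- vehicle cultures, and 0.591, 0.601 and 0.504 without and 1.67, 0.88 and 0.726 with IL-4 in Pparg fl/- ones. The arrays did not overlap, but the change missed the threshold in each setting (0.50 ± 0.31, adjusted p = 0.30, in Pparg+/- and 0.86 ± 0.31, adjusted p = 0.052, in Pparg fl/- vehicle cultures), and only the mean of the 4 settings passed it (0.62 ± 0.15, limma adjusted p = 0.0028); without the IL-4 vehicle array of mouse 4, and with each array centred on its median, that mean was 0.53 and no longer passed.

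The spread came from 1 probe set. One of the 3 read 3.4 on the IL-4 vehicle array of mouse 4 and between 0.171 and 0.829 on all others, and its mean change was 0.44 ± 0.43 (limma adjusted p = 0.48). Another read 0.611, 0.817 and 0.821 without and 1.16, 1.41 and 1.3 with IL-4 in Pparg+/- vehicle cultures, and 0.881, 0.876 and 0.722 and then 1.29, 1.26 and 1.34 in Pparg fl/- ones; it rose by 0.65 ± 0.08 in the mean of the 4 settings. The last rose by 0.77 ± 0.09. With the median of the probe sets in place of the mean, Atf4 rose in Pparg+/- (0.75) and Pparg fl/- (0.87) vehicle cultures. In the mean of the 4 settings Atf4 was the only one of the 21 genes with several probe sets whose probe sets differed in their call. Within single settings the probe sets of some other genes, such as Cars and Wars, differed too.

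**Figure D3:**
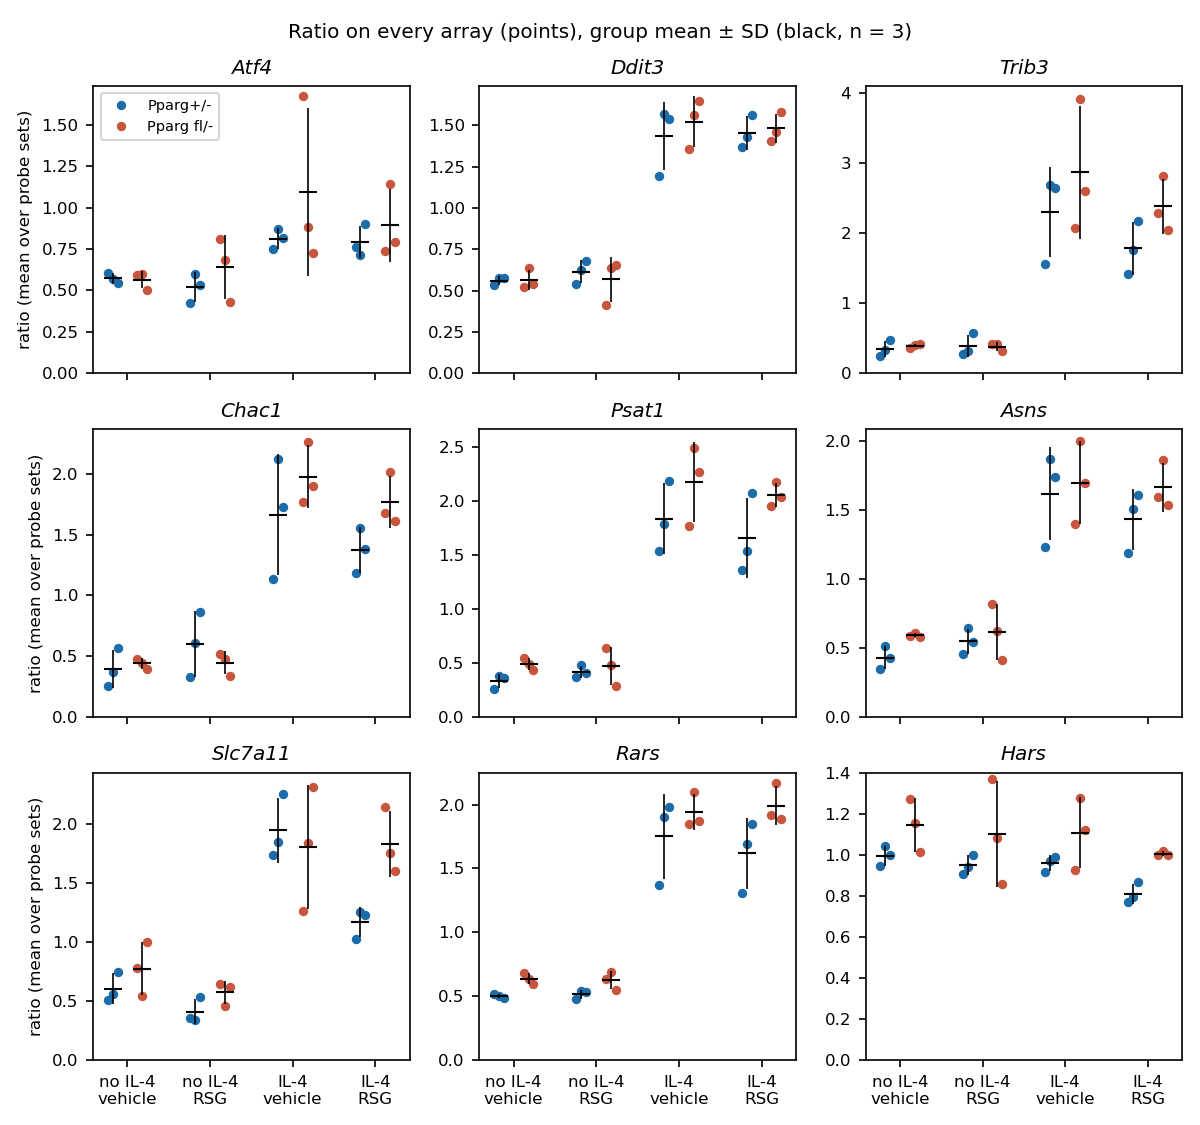
Ratio of 9 genes on every array (points, 3 per group; blue, Pparg+/-; red, Pparg fl/-) with the group mean ± SD in black, by treatment; each vertical axis starts at 0 and has its own range. The IL-4 groups of Ddit3, Trib3, Chac1, Psat1, Asns, Slc7a11 and Rars lie above all groups without IL-4, Atf4 shows 1 high array (mouse 4, ratio 1.67), and Hars shows no step.

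The serine synthesis pathway rose at each of its 3 steps. Phgdh, which starts serine synthesis from a glycolytic intermediate, had ratios of 0.441, 0.633 and 0.492 without IL-4 and 1.09, 2.32 and 2.17 with it in Pparg+/- vehicle cultures. The corresponding Pparg fl/- ratios were 0.815, 0.767 and 0.614, and 1.91, 2.23 and 1.86. Mouse 1 was the lowest of the Pparg+/- mice on both sides, and the groups did not overlap (1.77 ± 0.30 and 1.45 ± 0.30).

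Psat1, the aminotransferase of the next step, changed most among the enzymes. Ratios of 0.257, 0.378 and 0.359 without IL-4 stood against 1.54, 1.79 and 2.19 with it in Pparg+/- vehicle cultures. For Pparg fl/- they were 0.548, 0.493 and 0.432 against 1.77, 2.5 and 2.27. The change was 2.48 ± 0.25 and 2.14 ± 0.25 (limma adjusted p = 7.1e-07 and 3.1e-06), and it was 1.99 and 2.20 with RSG present.

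Psph, the phosphatase that releases serine, read 0.563, 0.788 and 0.632 and then 1.1, 2.02 and 1.83 in Pparg+/- vehicle cultures, and 0.918, 0.823 and 0.798 and then 1.18, 2.17 and 1.59 in Pparg fl/- ones. Its rise was smaller, 1.29 ± 0.26 and 0.92 ± 0.26. The array of mouse 4 with IL-4 was the nearest to the arrays without it.

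Serine feeds the one-carbon pathway of mitochondria, in which Mthfd2 encodes a folate dehydrogenase and cyclohydrolase. Mthfd2 went from 0.431, 0.574 and 0.545 to 1.25, 1.63 and 1.59 in Pparg+/- and from 0.783, 0.675 and 0.704 to 1.73, 2.01 and 1.63 in Pparg fl/- vehicle cultures (1.53 ± 0.19 and 1.31 ± 0.19). Shmt2, whose enzyme passes the carbon of serine to folate in mitochondria just before it, rose in Pparg fl/- vehicle cultures (0.90 ± 0.26, limma adjusted p = 0.017), and the other 3 settings gave 0.18 to 0.31. Its 4 probe sets differed there, from 0.36 to 1.92, and the one with the largest change in Pparg fl/- cells was -0.82 in Pparg+/- cells. With the probe set of the smallest spread Shmt2 passed in Pparg+/- (0.68) and not in Pparg fl/- vehicle cultures (0.36), and the Pparg fl/- call was also lost without mouse 5, without the IL-4 array of mouse 4 and under the methods' t-test. The difference between the genotypes in the response of Shmt2 under vehicle did not pass the test, with a 95% interval of -0.17 to 1.36.

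Asns, asparagine synthetase and a standard reporter of amino acid shortage, read 0.346, 0.511 and 0.429 without and 1.23, 1.87 and 1.74 with IL-4 in Pparg+/- vehicle cultures. Its Pparg fl/- ratios were 0.589, 0.61 and 0.58, and 1.4, 2 and 1.69. These are rises of 3.76-fold and 2.83-fold (log2 SE 0.23 in each), and with RSG the log2 change was 1.39 ± 0.23 and 1.48 ± 0.23.

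All 3 transporter genes were higher with IL-4. Slc7a11 encodes the light chain of the cystine and glutamate exchanger, and read 0.506, 0.56 and 0.75 without and 1.74, 1.84 and 2.25 with IL-4 in Pparg+/- vehicle cultures. The Pparg fl/- vehicle arrays read 0.783, 0.546 and 0.997, and then 1.27, 1.84 and 2.32. The groups did not overlap, and the changes were 1.70 ± 0.25 and 1.22 ± 0.25. Slc3a2, the heavy chain that this light chain and that of Slc7a5 need at the cell surface, rose by 1.10 ± 0.12 and 0.92 ± 0.12. Slc7a5, which imports leucine and other large neutral amino acids, rose by 1.19 ± 0.27 in Pparg+/- vehicle cultures (limma adjusted p = 0.0034) and was 0.55 to 0.72 in the other 3 settings, none of which passed; every IL-4 array of Slc7a5 was still above every other in all 4. With the mouse as a block (a paired fit, replicate block), Slc7a5 and Atf4 also rose in Pparg fl/- vehicle cultures, which made 25 genes there.

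Of the 19 measured cytosolic synthetase genes, 14 rose with IL-4 in Pparg+/- and 11 in Pparg fl/- vehicle cultures, and 12 rose in each genotype with RSG. Rars, for arginine, changed most. Its ratios without IL-4 were 0.515, 0.504 and 0.486 in Pparg+/- and 0.682, 0.633 and 0.594 in Pparg fl/- vehicle cultures, and with IL-4 they were 1.37, 1.9 and 1.98, and 1.84, 2.1 and 1.88. Its changes, 1.78 ± 0.14 and 1.61 ± 0.14, had the lowest adjusted p of the set in both (limma, 5.0e-08 and 1.3e-07).

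Eprs, the gene of the joint glutamyl- and prolyl-tRNA synthetase, was the next in size. It read 0.622, 0.678 and 0.676 and then 1.39, 1.88 and 1.79 in Pparg+/- vehicle cultures, and 0.663, 0.633 and 0.755 and then 1.52, 1.88 and 1.67 in Pparg fl/- ones. The rise lay between 1.19 and 1.44 in the 4 settings.

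Cars, for cysteine, was more variable: 0.772, 0.507 and 0.607 became 0.925, 1.67 and 1.03 in Pparg+/- vehicle cultures, and 0.874, 0.486 and 0.836 became 1.81, 1.81 and 1.64 in Pparg fl/- ones. Its changes were 0.91 ± 0.27 and 1.31 ± 0.27, and the Pparg+/- call was lost without mouse 2 or without mouse 3. In Pparg fl/- vehicle cultures its 2 probe sets changed by 2.03 and 0.58, and the smaller change did not pass. The Pparg fl/- call was lost with the probe set of the smallest spread. Under the methods' t-test the calls in Pparg+/- and Pparg fl/- vehicle cultures were lost.

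Aars, for alanine, had ratios of 0.496, 0.608 and 0.574 without and 1.13, 1.36 and 1.35 with IL-4 in Pparg+/- and of 0.874, 0.778 and 0.763 without and 1.29, 1.67 and 1.44 with IL-4 in Pparg fl/- vehicle cultures. These groups did not overlap either, with changes of 1.20 ± 0.14 and 0.86 ± 0.14. The other synthetase genes that rose in all 4 settings (Farsb, Wars, Lars, Mars, Nars, Sars and Gars) had changes of 0.59 to 1.02. Yars, for tyrosine, rose by 0.86 in Pparg+/- vehicle cultures and missed the threshold in Pparg fl/- ones (0.36 ± 0.18, adjusted p = 0.19), where the IL-4 array of mouse 4 read 0.9 and those of mice 5 and 6 read 1.76 and 1.26.

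Wars, for tryptophan, is also a known interferon-response gene. In Pparg+/- vehicle cultures without IL-4 it read 1.34, 0.637 and 0.637, and with IL-4 1.14, 1.4 and 1.42, so that mouse 1 alone went down. The array of mouse 1 without IL-4 was also the highest for 8 other interferon-response genes, whose summed ratio was 47 there and 6.58 to 14.3 on the 23 other arrays; the part of this in the Wars value was not tested. Without that array the change of Wars was 1.05 in place of 0.69, and without mouse 2 or mouse 3 it was 0.46 and 0.45 and no longer passed. In Pparg fl/- vehicle cultures Wars rose by 1.02 ± 0.21, from 0.782, 0.758 and 0.672 to 1.35, 1.77 and 1.38.

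A few synthetase genes stayed near their median. Hars, for histidine, changed by -0.05 ± 0.14 in both vehicle comparisons and by -0.23 ± 0.14 and -0.11 ± 0.14 with RSG, none of which passed. In Pparg+/- cells with RSG its IL-4 arrays (0.773 to 0.868) lay below the others (0.91 to 1), the 1 gene of the set for which this held in that direction. The share of all genes for which it held was not counted. The ratios of Hars ran from 0.773 to 1.37 over all 24 arrays. Qars (glutamine), Vars (valine) and Farsa (the catalytic α-subunit gene for phenylalanine) had changes between -0.15 and 0.38 in the 4 settings, none of which passed. Kars, for lysine, was higher on every IL-4 array in each setting, but by only 0.24 to 0.37, under the 1.5-fold required. Iars and Tars lay between these and the rest, with changes of 0.46 to 0.68 and 0.29 to 0.59. Farsb, the β-subunit gene, rose by 1.00 ± 0.13 and 0.80 ± 0.13 in vehicle cultures, whereas Farsa read 1.08, 0.997 and 0.799 without and 0.967, 0.835 and 0.785 with IL-4 in Pparg+/- cells. The Farsa value averages 4 probe sets that did not behave alike. In the mean of the 4 settings 1 of them changed by 0.40 ± 0.10 (limma adjusted p = 0.0027, under 1.5-fold). The others changed by -0.01 ± 0.14, -0.20 ± 0.29 and -0.18 ± 0.23. Of the 7 measured synthetases of the multi-synthetase complex, a cytoplasmic assembly, the genes Eprs, Lars, Mars and Rars rose in all 4 settings, Iars in 1, and Kars and Qars in 0.

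**Figure D4:**
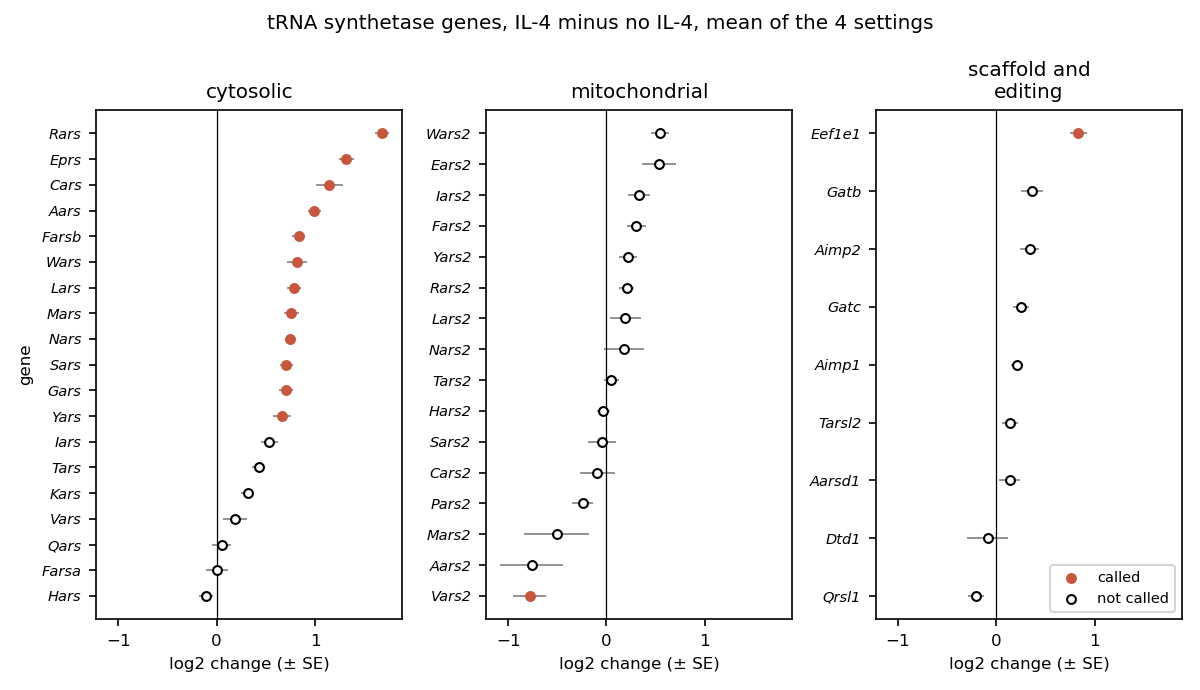
Log2 change with IL-4 in the mean of the 4 settings (limma estimate ± SE) for 19 cytosolic synthetase genes, 16 mitochondrial ones and 9 scaffold or editing genes; filled points passed the test. In the cytosolic panel 12 points are filled and to the right of 0, in the mitochondrial panel the 1 filled point, Vars2, is to the left, and in the third panel Eef1e1 is filled.

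Most mitochondrial synthetases are encoded by separate genes. Of 16 such genes measured, 1 rose and 1 fell in each genotype with IL-4 in vehicle cultures, and 0 rose or fell with RSG. Iars2 rose in Pparg+/- cells (0.67 ± 0.23, limma adjusted p = 0.044), Wars2 rose in Pparg fl/- cells (0.66 ± 0.18), and Vars2 fell by 1.27 in both. Their median change was 0.20 and -0.03, beside 0.85 and 0.69 for the cytosolic genes and 0.09 and 0.13 for all genes. Of 9 scaffold and editing genes, Eef1e1, a small protein of the multi-synthetase complex, rose (0.88 ± 0.17 and 0.87 ± 0.17).

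**Figure D5:**
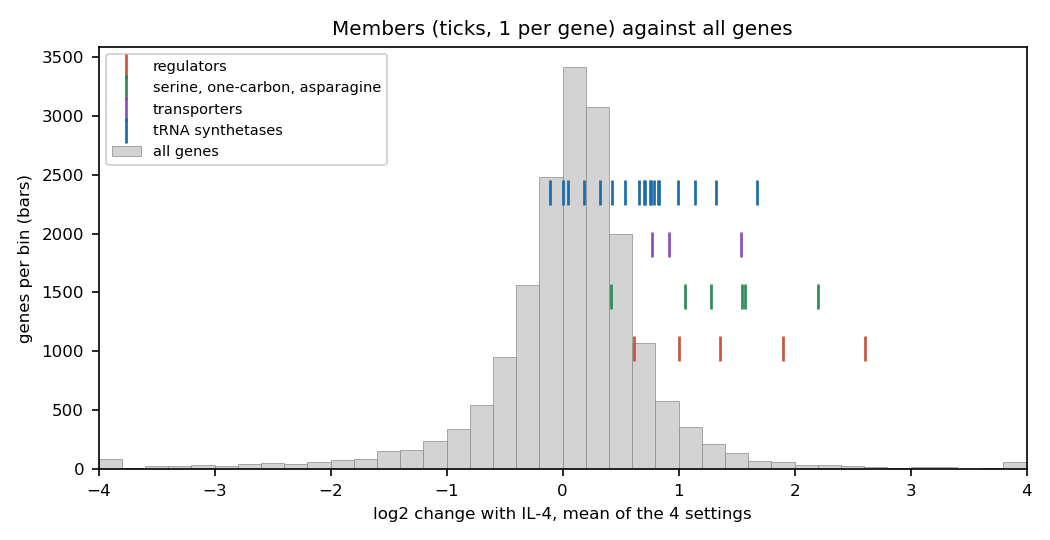
Number of genes (bars, all 18193) by their log2 change with IL-4 in the mean of the 4 settings, with a tick for each of the 33 genes, 1 row per role; the outermost bars also hold values beyond the axis. The ticks run from -0.11 (Hars) to 2.60 (Trib3), with a median of 0.82 beside 0.13 for all genes.

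Other genes of the pathway were read from lists. Of 12 listed genes for leucine zipper partners of ATF4 and other factors, 7 rose and 0 fell in every setting. Batf3, a factor of dendritic cell development, rose by 2.50 and 2.76 in Pparg+/- and Pparg fl/- vehicle cultures. Nupr1, a stress-induced chromatin protein, rose by 2.22 and 2.44, Atf5, a relative with similar translational control, by 1.89 and 1.40, and Atf3, a stress-induced repressor, by 1.48 and 1.48.

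Of 23 other ATF4 targets outside the list, 15 rose and 0 fell in Pparg+/- vehicle cultures, 11 rose and 1 fell in Pparg fl/- ones, and 9 and 10 rose with RSG. Gpt2, a mitochondrial alanine aminotransferase, rose by 2.75 and 2.91 in the vehicle cultures. Cth, which makes cysteine from cystathionine, rose by 2.14 and 1.25, Vldlr, a lipoprotein receptor, by 1.98 and 2.36, and Ero1a, an oxidase of the endoplasmic reticulum, by 1.81 and 1.64. The gene that fell was Aldh1l2, a mitochondrial folate dehydrogenase (-1.10 ± 0.28 in Pparg fl/- and -0.41 ± 0.28, adjusted p = 0.38, in Pparg+/- cells).

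Of 10 genes upstream of ATF4, for eIF2α kinases, subunits and phosphatases, 1 rose and 1 fell in Pparg+/- cells with vehicle and again with RSG, 1 rose and 0 fell in Pparg fl/- cells with vehicle, and 2 rose and 2 fell there with RSG. Ppp1r15a, which encodes the inducible phosphatase subunit GADD34 and is itself an ATF4 target, rose by 1.25 ± 0.20 and 1.38 ± 0.20. Eif2ak2, the interferon-inducible kinase PKR, fell by 0.70 in Pparg+/- cells and was -0.53 ± 0.18 (limma adjusted p = 0.043, under 1.5-fold) in Pparg fl/- ones. The kinases for endoplasmic reticulum stress and amino acid shortage, Eif2ak3 and Eif2ak4, did not pass in vehicle cultures (-0.62 ± 0.46 and -0.57 ± 0.37 in Pparg+/- cells), but Eif2ak4 fell in Pparg fl/- cells with RSG (-1.56 ± 0.37, limma adjusted p = 0.0046) and in the mean of the 4 settings (-0.78 ± 0.18), and Ppp1r15b, the constitutive phosphatase subunit, rose in Pparg fl/- cells with RSG (0.93 ± 0.28). Of 16 unfolded protein response genes outside ATF4, Ern1 and Sel1l rose in Pparg+/- and Ern1 in Pparg fl/- vehicle cultures, and 0 fell; the chaperone gene Hspa5 gave -0.09 ± 0.12 and -0.20 ± 0.12.

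The other amino acid transporters split. Of 18, 6 rose and 3 fell in Pparg+/- and 6 rose and 4 fell in Pparg fl/- vehicle cultures. Slc7a2, a carrier of arginine and other cationic amino acids, rose by 5.38 ± 0.47 and 5.95 ± 0.47, more than any of the 33 genes. Slc7a1, a carrier of the same amino acids, rose by 1.18 and 0.93 and Slc1a5, a glutamine carrier, by 1.06 and 1.06, whereas Slc7a8, a carrier of neutral amino acids, fell by 1.05 and 1.60. Of 12 other serine, glycine and one-carbon genes, Sardh rose by 0.96 and 1.10 and Shmt1, the cytosolic counterpart of Shmt2, fell by 1.96 and 1.47. Of 17 genes of amino acid sensing by mTORC1, Rheb, Nprl3 and Tsc1 rose in Pparg+/- and 0 in Pparg fl/- vehicle cultures, where Sesn3 and Castor1 fell. Of 10 genes for MYC and its partners, Mxi1 rose in both genotypes (1.00 and 0.95), Mlxip in Pparg+/- and Myc itself in Pparg fl/- vehicle cultures. Myc also rose in the mean of the 4 settings. Among 11 NRF2 targets Slc48a1 rose and Gsr fell in both genotypes with vehicle.

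The cultures with and without IL-4 also differed in the markers of other cells. Of 8 neutrophil markers 6 fell with IL-4 in Pparg+/- and 7 in Pparg fl/- vehicle cultures; their summed ratio was 20.1 to 27.8 without and 1.76 to 3.09 with IL-4 in Pparg+/- cells, and 12.6 to 20.7 and 1.06 to 1.57 in Pparg fl/- ones. All 7 measured proliferation markers fell in both, with sums of 17.6 to 28.1 and 0.883 to 1.29 in Pparg+/- cells. Of 6 stromal markers 4 and 5 fell, with sums of 8.32 to 9.74 and 1.77 to 3.55 in Pparg+/- cells. Of 4 dendritic cell markers Zbtb46 rose in both genotypes and Flt3 in Pparg fl/- cells, of 3 B cell markers Cd79b fell in both, of 4 mast cell and basophil markers Cpa3 rose in Pparg+/- cells, and of 4 T and NK cell markers 0 passed. Of 8 interferon-response genes 4 fell in Pparg+/- and 3 in Pparg fl/- vehicle cultures, and Usp18 rose in both. In Pparg+/- cells Rtp4 fell by 4.54, Ifit1 by 2.58 and Ifit3 by 1.90. These Pparg+/- values include the array of mouse 1 without IL-4, where the 8 genes summed to 47, beside 7.07 and 13.4 in mice 2 and 3. The median change of the 8 genes was -0.99 in Pparg+/- and -0.27 in Pparg fl/- vehicle cultures. Of 8 macrophage markers Itgam rose and Fcgr1, Mertk and Cx3cr1 fell in both genotypes; since ratios carry no level, the labelled cell type could not be checked by how strongly Csf1r, Cd68 or Lyz2 were expressed. The part of these shifts in the IL-4 results was not tested, and in whole cultures a change in the share of a cell type and a change per cell cannot be told apart.

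The response was present in each mouse. Between 27 and 32 of the 33 genes were higher with IL-4 in each of the 12 pairs of cultures from 1 mouse. The median change of the 33 genes was 0.69 to 1.14, beside -0.02 to 0.23 for all genes. On the 12 arrays without IL-4 the median log2 ratio of the 33 genes ran from -0.72 to -0.19, and on the 12 IL-4 arrays from 0.13 to 0.74, with no overlap. The IL-4 vehicle array of mouse 4 stood apart from its group over all genes (spread of its log2 deviations 0.626, other arrays 0.525 to 0.594). Without it, 25 genes rose in Pparg fl/- vehicle cultures: Iars, Slc7a5 and Yars were added and Shmt2 was lost. Centring each array on its median shifted the median of all genes in Pparg+/- vehicle cultures from 0.09 to -0.01, and the split of all calls from 1457 up and 1195 down to 1086 and 1475; relative to that shift 23 of the 33 genes rose and the median change was 0.88.

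No difference between the genotypes in the response of the set to IL-4 was detected. For Pparg fl/- minus Pparg+/- under vehicle 0 genes of the set passed in limma (0.00% of all genes). With RSG 0 passed (0.00550% of all genes). At an unadjusted limma p below 0.05 there were 0 genes of the set under vehicle and 0 with RSG. Among all genes there were 925 and 831. The median of the differences of the set was -0.20 and 0.11. For Trib3 the difference under vehicle was 0.10, with a 95% interval of -0.79 to 0.99, for Psat1 -0.34 (-1.07 to 0.40) and for Rars -0.18 (-0.60 to 0.25), so that differences of up to about these bounds would not have been seen.

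Without IL-4 the set tended to be higher in Pparg fl/- than in Pparg+/- vehicle cultures, but no gene passed. The difference was above 0 for 30 of 33 genes, but also for 27 (no IL-4, RSG), 30 (IL-4, vehicle) and 31 (IL-4, RSG) in the other treatments. The share of all genes above 0 was not counted. Without IL-4 under vehicle the median was 0.34, beside 0.08 for all genes. At an unadjusted p below 0.05 there were 13 genes of the set and 1667 of all 18193, and the lowest adjusted p was 0.30 (limma, 0 of 33 called, 0.00% of all genes called). Aars led (0.53 ± 0.14, 95% interval 0.24 to 0.82), followed in p by Nars (0.36 ± 0.10), Tars (0.45 ± 0.14) and Yars (0.58 ± 0.18). For 16 genes the 3 Pparg fl/- arrays lay above the 3 Pparg+/- arrays, which 13.9% of all genes did. The tRNA synthetase genes made up 12 of the 16, and Asns, Psat1, Psph and Mthfd2 the rest.

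In the 3 other treatments the genotype medians were 0.18 (no IL-4, RSG), 0.17 (IL-4, vehicle) and 0.21 (IL-4, RSG), beside 0.12, 0.09 and 0.11 for all genes, and 0 of the 33 genes passed in each (limma; all genes, 0.0110%, 0.00% and 0.555%), with 3, 2 and 6 at an unadjusted p below 0.05 beside 1626, 1448 and 2019 of all 18193 genes. With IL-4 and RSG 13 genes had all Pparg fl/- arrays above all Pparg+/- arrays (17.6% of all genes), among them Slc7a11 (0.64 ± 0.25, adjusted p = 0.33). Without mouse 1 the median with IL-4 and vehicle was 0.04 in place of 0.17. The genotypes were different mice, 3 against 3, so that genotype and mouse cannot be separated beyond that number, and the genotype comparisons use the same arrays as the IL-4 comparisons above.

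No gene of the set passed the test for RSG. In Pparg+/- cells 0 of 33 passed without IL-4 (0.0220% of all genes) and 0 with IL-4 (0.390%), and in Pparg fl/- cells 0 without (0.00%) and 0 with IL-4 (0.00550%). The 4 medians were 0.13, -0.11, -0.04 and -0.06. Unadjusted limma p-values below 0.05 numbered 2, 1, 1 and 0 of 33, beside 992, 1392, 742 and 853 of all 18193 genes, and the methods' t-test called 0 in each. The difference between the RSG responses with and without IL-4 in Pparg+/- cells passed for 0 genes (0.00550% of all genes) and that between genotypes with IL-4 for 0 (0.00%).

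Slc7a11 showed the largest RSG difference. With IL-4 in Pparg+/- cells its ratios were 1.74, 1.84 and 2.25 under vehicle and 1.03, 1.25 and 1.23 under RSG, which did not overlap, and the change was -0.73 ± 0.25 (95% interval -1.25 to -0.21, limma adjusted p = 0.35). Without IL-4 the ratios were 0.506, 0.56 and 0.75 and then 0.356, 0.339 and 0.535 (-0.57 ± 0.25, adjusted p = 0.87). In Pparg fl/- cells without IL-4 its mean ratio was 0.775 under vehicle and 0.572 under RSG, a change of -0.41. These arrays overlapped (0.546 to 0.997 and 0.459 to 0.64). In Pparg fl/- cells with IL-4 the ratios were 1.27, 1.84 and 2.32 and then 2.14, 1.75 and 1.6, with a change of 0.05 ± 0.25. The difference between the genotypes, 0.78 with an interval of 0.05 to 1.52, did not pass after adjustment (limma adjusted p = 1.0). For Trib3, Psat1, Asns and Rars the RSG changes in the 4 cultures lay between -0.35 and 0.36.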

How the data were processed

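The 24 Affymetrix arrays were grouped by genotype, IL-4 and RSG from their labels. Per the labels and methods, the authors made the deposited ratio values by GC-RMA in GeneSpring 7.3 (GCOS is also named in the submitters' processing notes), dividing each array by its 50th percentile and each probe set by its median. In the files 82.2% of 45101 probe sets had a median within 0.005 of 1, and 17.1% lay under 0.95, for which the divisor is unknown. Depth does not apply to arrays: 3 arrays per group limit the precision.

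Ratios were floored at 0.01 (124 values), put on the log2 scale and averaged over the 34945 probe sets that name 1 gene (932 name several, 9160 none) into 18193 genes; 3 probe sets of the set that name several genes were left out. Group means of all 8 groups were fitted together with limma 3.58.1 (lmFit and eBayes with a trend; R 4.3.3), which was also tested on simulated data, and p-values were adjusted by Benjamini-Hochberg over all genes in each comparison. Tables were handled in Python 3.11.15 with pandas 2.3.3. Alternatives were another floor, array centring, quantile normalization, a filter on low ratios, other ways to join probe sets, the mouse as a block, the methods' t-test, and leaving out each mouse or either of 2 arrays.

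1 of the 34 listed genes is not reported here. The members, gene lists and rules were chosen with earlier results of these data known. Values by array are given for the 14 members with the largest change with IL-4 in the mean of the 4 settings and for Atf4; from each list, up to 4 called genes with the largest change in Pparg+/- vehicle cultures are named. Array values of Wars, Yars and Farsa, and Aldh1l2, Eif2ak3, Eif2ak4, Ppp1r15b, Hspa5, Wars2, Sesn3, Castor1, Flt3 and the genes named for another setting, were added after their values were seen. Jhy and Avil, entered in error, and Cebpg, which another list also held, were taken out of the lists after values had been seen. Cultures with the same number came from the same mouse per the labels, although their deviations from the group means correlated little (median 0.013, from -0.05 to 0.056 over 36 pairs; different mice -0.006). The p-values rest on the spread between arrays of a group, pooled over the 8 groups, in which a mouse counts 4 times.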

Additional observations from a re-analysis of the deposited data

Results flagged for a closer look

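For 2 synthetase genes every mouse of one genotype moved one way with RSG and every mouse of the other moved the opposite way. This pattern was looked for in all 33 genes, for IL-4 under vehicle and RSG and for RSG with and without IL-4. With so many looks and 3 mice per genotype some such cases can arise by chance, and the share over all genes was not counted. Without IL-4, Yars was higher with RSG in the 3 Pparg+/- mice (mean log2 change 0.11, from 0.00093 to 0.21) and lower in the 3 Pparg fl/- mice (mean -0.23, from -0.31 to -0.12), a difference of -0.35, which was not tested. With IL-4, Rars was lower with RSG in the Pparg+/- mice (mean -0.11, from -0.17 to -0.06) and higher in the Pparg fl/- mice (mean 0.04, from 0.01 to 0.06), and the difference of 0.15 did not pass in limma (adjusted p = 1.0, 95% interval -0.27 to 0.57).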

How the results depend on the processing

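Of 2013 values of single genes under the alternatives, 1898 stayed on their side of the threshold, 95 lost the call, 20 gained it and 0 changed sign while called. Under the methods' t-test the number of genes that rose with IL-4 was 15 in Pparg fl/- vehicle cultures and 14 in Pparg fl/- RSG cultures (23 in each with limma), and 19 and 17 in Pparg+/- vehicle and RSG cultures (26 and 23 with limma); it estimates the spread from the arrays of 1 comparison. When each mouse, or either of 2 single arrays, was left out in turn the count was 23 to 26 in Pparg+/- vehicle, 17 to 25 in Pparg fl/- vehicle, 14 to 22 in Pparg+/- RSG and 17 to 22 in Pparg fl/- RSG cultures, and 24 to 26 in the mean of the 4 settings, where the 24 came without the IL-4 vehicle array of mouse 4. The 14 came without mouse 3, when Cars, Farsb, Gars, Lars, Mars, Phgdh, Psph, Sars and Wars lost the call; the cause was not tested beyond the smaller number of arrays. Array centring gave 23, 22, 20, 19 and 23 genes and quantile normalization 25, 21, 22, 19 and 24. In Pparg fl/- vehicle cultures quantile normalization moved the share of rising genes among all calls from 52.8% to 43.4%. With the mouse as a replicate block the counts were 26, 25, 23, 23 and 25, and no call other than those of Atf4 and Slc7a5 in Pparg fl/- vehicle cultures changed. In the 12 RSG, genotype and difference comparisons 0 genes of the set were called in all 153 alternative values. The methods' t-test was not run for the mean of the 4 settings, nor the block for genotype comparisons, in which each mouse has 1 genotype. Signals over background are not in the ratios, so genes near background could not be set apart.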
